A study of Homo sapiens with 6 samples.

Results

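PBX3_Cl KO is an edited line of K562 cells, compared here with Control K562 cells. K562 is an established human erythroleukaemia line that grows in suspension and carries the BCR-ABL fusion. In PBX3_Cl KO (labelled PBX3_Claudia Knockout) a non-coding element named PBX3_Cl had been cut out with a pair of Cas9 guides, and Control cells have the genotype WT. PBX3_Cl KO and Control made up 4 of the 6 bulk RNA-seq libraries of the series, 2 replicates each. The remaining 2 libraries, PAX6_Ta KO (labelled PAX6_Tarzan Knockout), came from K562 cells that had lost another element, on 11p. Their values are set beside those of PBX3_Cl KO. They were also part of the fit behind every p-value of PBX3_Cl KO against Control. All 20746 genes that passed a filter on low counts, of 52088 in the count table, were compared. Edited cells went through transfection, puromycin selection and the picking of single clones checked by PCR and Sanger sequencing, none of which is given for Control, and both PBX3_Cl KO columns carry the name of one clone. Loss of the element and the history of that clone therefore cannot be told apart in these libraries. No source states that replicates were separate cultures, so the p-values speak to the spread among these samples alone, and that spread may be technical.

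Ultraconserved elements are stretches of non-coding DNA that have stayed nearly identical between distant species, and many act as enhancers during development. PBX3 encodes a homeodomain protein that binds DNA together with HOX and MEIS proteins, and it is known in leukaemia as a partner of HOXA9. MAPKAP1 encodes SIN1, a subunit of mTOR complex 2, which phosphorylates AKT. The erythroid identity of K562 shows in fetal and embryonic globins, GATA1, TAL1 and the transferrin receptor, and the line can be driven towards red cells or megakaryocytes.

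PBX3_Cl spans chr9:128457564-128457785 (GRCh37), 222 bp with 37.8% GC, in the first intron of MAPKAP1, a gene on the reverse strand. The intron is 34327 bp long in the canonical transcript of 12 exons, the element lies 11465 bp from the nearest of those exons, and it overlaps 0 exons of the 20 annotated transcripts. Its reference sequence is shown because its loss is what defines the line. Capitals mark each TAATTA, the core that homeodomain proteins bind, and each TGACAG, the core of MEIS and PKNOX proteins, on either strand.
PBX3_Cl: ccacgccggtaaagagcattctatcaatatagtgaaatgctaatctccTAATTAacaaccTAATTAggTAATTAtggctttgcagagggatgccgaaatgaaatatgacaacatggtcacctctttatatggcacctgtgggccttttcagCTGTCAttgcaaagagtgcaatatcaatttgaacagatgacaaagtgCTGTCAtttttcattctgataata
The letters TAATTA occur 3 times in the element, and 8.97% of 1215 windows of the same length tiled over MAPKAP1 hold them at least once. TGACAG occurs 2 times, and 16.5% of those windows hold it. The PBX-HOX sites TGATTAAT and TGATTGAT were searched on both strands and are not in this window. These matches describe the letters and do not show binding.

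The guides that cut out the element are given with the bases of the PAM in capitals, since they fix what was removed.
guide expressed from the U6 promoter: ctcagtactgcaaagactgtGGG
guide expressed from the H1 promoter: gcttgtacagttaagcatgaTGG
The first matches the forward strand at chr9:128456987-128457009 and the second the reverse strand at chr9:128457970-128457992 (GRCh37). Cuts 3 bases from each PAM would remove 972 bp, from base 128457004 to base 128457975, all within the intron. Counts per gene do not show whether that segment was lost.

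The 4 libraries held between 45912044 and 60908470 counts, with 27768 to 28441 genes detected. Log2 CPM correlated across tested genes at 0.988 between the Control replicates, at 0.981 between those of PBX3_Cl KO and at 0.953 to 0.961 between a Control and a PBX3_Cl KO library, although genes are not independent replicates. Counts of the mitochondrial genome made up 1.52% and 1.57% of the Control libraries and 2.37% and 2.42% of PBX3_Cl KO. Replicates of PBX3_Cl KO stood further apart than those of Control, with a chi-square per degree of freedom of 138.8 against 53.01. Control replicate 1 differed from replicate 2 in megakaryocyte genes, such as ITGA2B at 3232 and 826 counts, so counts of calls over a list are also given without either Control replicate where that moved them by over 1.5 times and by at least 2 genes. A value given after a gene as "at" or alone in brackets is its log2 fold change, PBX3_Cl KO over Control, and a ratio of counts comes with its exact 95% counting interval.

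The host gene was measured first. MAPKAP1 had 5160 and 3888 counts in Control and 4543 and 3811 in PBX3_Cl KO, and its log2 fold change was 0.19 (SE 0.20, adjusted p = 0.707, edgeR). As CPM, counts scaled to the size of each library, MAPKAP1 stood at 85.9 and 77.0 in Control and at 103 and 83.2 in PBX3_Cl KO, so the groups overlapped. PBX3, whose nearest end is 51.8 kb from the element, had 53 and 49 counts in Control and 235 and 280 in PBX3_Cl KO. This was a log2 fold change of 2.62 (SE 0.31, adjusted p = 1.78e-04, edgeR), both PBX3_Cl KO libraries lying above both Control libraries. In PAX6_Ta KO, whose deletion is on another chromosome, PBX3 had 282 and 274 counts, and the direct difference between the 2 edited lines was 0.05 on the log2 scale (adjusted p = 0.951, edgeR). PBX3_Cl KO and PAX6_Ta KO share their Control libraries, so a rise against Control in both is not independent evidence. PBX3 thus rose in the line that lost PBX3_Cl, but its level was not called different from that of a line with PBX3_Cl intact.

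The other genes within 1 Mb of the element were not called. HSPA5, which encodes the ER chaperone BiP, had 21585 and 20230 counts in Control and 25375 and 16552 in PBX3_Cl KO and a log2 fold change of 0.30 (SE 0.25, adjusted p = 0.612, edgeR). For PPP6C, a catalytic subunit of protein phosphatase 6, the value was -0.11 (SE 0.21), and for GAPVD1, an endocytic regulator, 0.12 (SE 0.19). RABEPK was at -0.04, GOLGA1 at 0.03, RPL35 at -0.19 and ARPC5L at -0.28, each with an SE of 0.19 to 0.22. Among protein-coding genes the lowest values were those of NR6A1 at -0.36 (SE 0.20), SCAI at -0.38 (SE 0.19) and WDR38 at -0.76 (SE 0.38), with adjusted p of 0.358, 0.318 and 0.302 from edgeR. The lncRNA MIR181A2HG at -0.83 (SE 0.60) and the pseudogene FXNP2 at -0.44 (SE 0.63) were measured less precisely. Of the 21 genes tested within 1 Mb, pseudogenes and lncRNAs included, 1 was called, PBX3.

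Over 5 Mb on either side, 23 of 157 tested genes were higher in PBX3_Cl KO than in Control and 4 were lower, with a median log2 fold change of 0.04. Of all tested genes, 6.28% were called higher and 2.69% lower, and among the 433 tested genes on the rest of 9q 30 were higher and 8 lower, with a median of -0.02. Among protein-coding genes the largest rises were those of ASS1, argininosuccinate synthase of the urea cycle, at 5.33 (SE 0.53, adjusted p = 3.77e-05, edgeR), and NCS1, a neuronal calcium sensor, at 3.90 (SE 0.26, adjusted p = 2.02e-06, edgeR). NEK6, a mitotic kinase, had 135 and 180 counts in Control and 968 and 980 in PBX3_Cl KO, a log2 fold change of 2.90 (SE 0.30, adjusted p = 4.77e-05, edgeR), and the direct difference to PAX6_Ta KO was 2.99 on the log2 scale (adjusted p = 3.34e-05, edgeR). PTGS1, which encodes cyclooxygenase 1, had 1374 and 373 counts in Control and 5946 and 7546 in PBX3_Cl KO and stood 3.30 above Control. GARNL3, at 2.44, and NIBAN2, at 0.84, rose too. Beside NEK6 lie 2 lncRNAs without a symbol that had no read in Control and were at least 20.1-fold (ENSG00000235204) and 17.2-fold (ENSG00000227200) higher. ASS1 was not higher than in PAX6_Ta KO (873 and 449 counts), where the difference was -1.20 on the log2 scale (adjusted p = 0.0681, edgeR). NIBAN2 lost its call on leaving out Control replicate 2 or PBX3_Cl KO replicate 1 (adjusted p 0.0916 to 0.217, edgeR).

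Some of the called genes of this window were neighbours. BBLN, CIZ1, GOLGA2, SWI5, TRUB2 and COQ4 lie between 2464.8 and 2627.0 kb from the element, and their log2 fold changes ran from 1.06 to 1.42. DNM1 at 0.51 (SE 0.26) and the lncRNA ENSG00000272696 at 1.09 (SE 0.45) lie in the same interval and were not called. CIZ1, which takes part in DNA replication, had 12958 and 10494 counts in Control and 22118 and 28840 in PBX3_Cl KO, and GOLGA2, a cis-Golgi matrix protein, had 6172 and 4433 counts in Control and 11381 and 11065 in PBX3_Cl KO. TOR1B, TOR1A and C9orf78, from 4107.7 to 4131.8 kb away, were at 0.89, 0.82 and 0.96. On the opposite side PSMD5, the transcribed pseudogene CUTALP and PHF19, a Polycomb-like subunit, at 0.92, 1.07 and 1.35, lie at -4852.3 to -4800.4 kb. These neighbours were pointed out after their values were seen. The rises in these 3 clusters were smaller than those of ASS1, NCS1 and PTGS1, and each of the 12 called genes was also called higher than in PAX6_Ta KO. TOR1B, TOR1A, C9orf78 and PSMD5 lost their calls on leaving out one or other of Control replicate 2 and PBX3_Cl KO replicate 1 (adjusted p 0.0505 to 0.282, edgeR).

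Genes of the window that fell were CERCAM, a cell adhesion protein of brain endothelium, at -2.41 (SE 0.27, adjusted p = 9.38e-05, edgeR), CRB2, an apical polarity protein, at -2.31, IER5L at -1.24 and ENSG00000273186, a lncRNA beside CERCAM, at -2.20. Set directly against PAX6_Ta KO, CERCAM differed by -1.87 and CRB2 by -1.59 (adjusted p = 4.99e-04 and 0.00702, edgeR). IER5L lost its call on leaving out Control replicate 1 or 2 or PBX3_Cl KO replicate 2 (adjusted p 0.0606 to 0.111, edgeR).

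Across the genome, 1302 genes were higher in PBX3_Cl KO than in Control (6.28%) and 558 lower (2.69%) by edgeR at an adjusted p below 0.05. Changes of at least 2-fold made up 1051 of the rises and 491 of the falls, and the median over all tested genes was -0.01. Protein-coding genes contributed 1486 of the calls and lncRNAs 233 (137 higher, 96 lower). With the replicate number as a block the calls came to 1922 higher and 876 lower, and without Control replicate 2 they came to 849 and 522. Set directly against PAX6_Ta KO, PBX3_Cl KO had 1392 genes higher (6.71%) and 1091 lower (5.26%).

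The steepest falls took genes from clear expression to almost no reads. SMOC2, a matricellular calcium-binding protein, had 157 and 142 counts in Control and 0 and 0 in PBX3_Cl KO, at least 81.2-fold lower if its PBX3_Cl KO libraries are credited with 3 reads in all. TNC, the matrix protein tenascin C, had 599 and 183 counts in Control and 1 and 0 in PBX3_Cl KO, a ratio of 637 (exact 95% interval 114 to 25200). GASK1B, a Golgi-associated kinase, had 277 and 273 counts in Control and 1 and 0 in PBX3_Cl KO, a ratio of 448 (exact 95% interval 80.1 to 17700). In each of these the PBX3_Cl KO libraries held at most 1 read while every Control library held more than 140. PAX6_Ta KO kept SMOC2 at 106 and 129 counts but had 1 and 3 counts of TNC and 9 and 16 counts of GASK1B.

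Transcription and signalling genes were among these falls. SMAD1, which carries BMP signals to the nucleus, had 397 and 240 counts in Control and 1 and 1 in PBX3_Cl KO, a ratio of 259 (exact 95% interval 71.5 to 2150). EYA1, a transcriptional coactivator and phosphatase, had 595 and 452 counts in Control and 2 and 1 in PBX3_Cl KO, a ratio of 284 (exact 95% interval 97 to 1380). PTPN7, a haematopoietic tyrosine phosphatase, had 9107 and 6261 counts in Control and 36 and 22 in PBX3_Cl KO and fell by 7.73 on the log2 scale (SE 0.37, adjusted p = 3.54e-07, edgeR). SDC2, the heparan sulfate proteoglycan syndecan 2, had 737 and 1081 counts in Control and 2 and 4 in PBX3_Cl KO, and IGSF10, of the immunoglobulin superfamily, had 687 and 441 counts in Control and 2 and 4 in PBX3_Cl KO. PAX6_Ta KO had 3 and 0 counts for SMAD1, 2 and 2 counts for EYA1 and 101 and 60 counts for PTPN7, and only PTPN7 among these 3 was called lower in PBX3_Cl KO than there.

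A neighbouring pair of testis-type histone genes fell from high levels. H2AC1 had 13655 and 6545 counts in Control and 45 and 28 in PBX3_Cl KO, a log2 fold change of -7.77 (SE 0.42, adjusted p = 6.41e-07, edgeR). H2BC1 had 8878 and 9227 counts in Control and 51 and 35 in PBX3_Cl KO, at -7.43 (SE 0.29, adjusted p = 1.11e-07, edgeR). PAX6_Ta KO lay between, at 1378 and 939 counts for H2AC1 and 1397 and 1484 counts for H2BC1, and the direct log2 differences to it were -4.83 and -4.90 (adjusted p = 5.07e-06 and 2.67e-07, edgeR). Histone genes have near-identical copies whose reads the counting may have split, so these levels are uncertain to that extent.

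Genes that were silent or nearly so in Control appeared at clear levels in PBX3_Cl KO. KIF1A, a kinesin motor of axonal transport, had 1 and 1 counts in Control and 1221 and 2419 in PBX3_Cl KO, a ratio of 2230 (exact 95% interval 618 to 18500). COL5A1, a chain of fibrillar collagen V, had 13 and 3 counts in Control and 2622 and 4886 in PBX3_Cl KO, a log2 fold change of 9.15 (SE 0.46, adjusted p = 4.37e-07, edgeR). SPRR2D, a precursor of the cornified envelope of keratinocytes, had 0 and 0 counts in Control and 470 and 381 in PBX3_Cl KO and was at least 348-fold higher. LRRK2, a large kinase mutated in familial Parkinson's disease, had 0 and 0 counts in Control and 335 and 248 in PBX3_Cl KO and was at least 239-fold higher. All 4 were higher in both PBX3_Cl KO libraries than in any other library of the series.

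Further genes followed the same pattern at lower levels. COBL, an actin nucleator, had 1 and 1 counts in Control and 561 and 525 in PBX3_Cl KO, a ratio of 667 (exact 95% interval 184 to 5510), and APBB2, an adaptor that binds the amyloid precursor protein, had 3 and 7 counts in Control and 791 and 1055 in PBX3_Cl KO, at 7.77 (SE 0.43, adjusted p = 6.93e-07, edgeR). ZNF804A, a zinc finger gene expressed in brain, had 2 and 0 counts in Control and 272 and 229 in PBX3_Cl KO, a ratio of 308 (exact 95% interval 84.7 to 2550). FAM111B, a protease, RPA4, a homologue of a replication protein A subunit, the cadherin gene CDH12, the zinc finger gene ZNF597 and the neuropeptide receptor gene QRFPR had 0 counts in both Control libraries and were at least 108, 102, 82.7, 80.2 and 79-fold higher. RPA4, at 178 and 70 counts in PBX3_Cl KO, was not called by DESeq2. Each of the 12 protein-coding genes with the largest rises at 2 CPM or more was also called higher than in PAX6_Ta KO, CDH12 by the least, 1.88 (adjusted p = 0.0378, edgeR). Over all genes, 67 called higher had no read in Control and 25 called lower had none in PBX3_Cl KO.

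**Figure D1:**
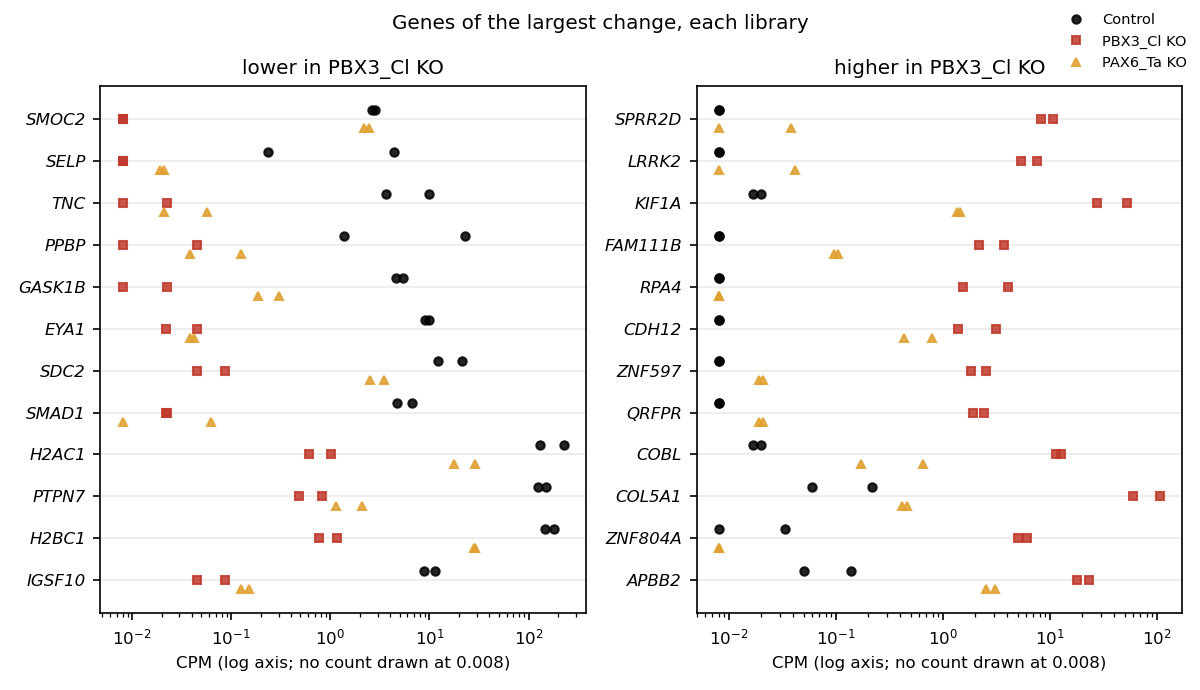
CPM of the 12 protein-coding genes at 2 CPM or more with the lowest (left) and the 12 with the highest (right) log2 fold change in each library, on a log axis; a library without reads is drawn at 0.008. Black circles are Control, red squares PBX3_Cl KO and yellow triangles PAX6_Ta KO. Black and red symbols do not overlap in any gene because only genes without overlap were eligible.

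The most abundant genes with a change of at least 2-fold all rose. MT-ND4, a mitochondrially encoded subunit of complex I, had 162176 and 166513 counts in Control and 253331 and 322670 in PBX3_Cl KO, at 1.09 (SE 0.29, adjusted p = 0.0354, edgeR). HBA2, an alpha globin gene, is described with the red cell genes below. ST6GAL1, which adds sialic acid to glycoproteins, had 8999 and 8159 counts in Control and 29102 and 12376 in PBX3_Cl KO, at 1.58. CIZ1 lies on 9q and has been given above. The other 6 were LMNA, TPM3, ADAR, UBQLN4, PRCC and CREG1, and all 6 lie on 1q. LMNA, which encodes nuclear lamins A and C, had 31759 and 18238 counts in Control and 36479 and 47459 in PBX3_Cl KO, at 1.07 (SE 0.25, adjusted p = 0.0168, edgeR). ADAR, the RNA-editing adenosine deaminase, had 29351 and 19899 counts in Control and 40073 and 43226 in PBX3_Cl KO, at 1.07 (SE 0.22, adjusted p = 0.00781, edgeR), and PRCC, at 1.19 (SE 0.21, adjusted p = 0.00286, edgeR), stood highest of the 6. Their log2 fold changes ran from 1.05 to 1.19, with TPM3 at 1.05 and CREG1 at 1.06. MT-ND4, ST6GAL1, LMNA, ADAR, UBQLN4, TPM3 and CREG1 lost their calls on leaving out one or other of Control replicate 1 and 2 and PBX3_Cl KO replicate 1 and 2 (adjusted p 0.0542 to 0.270, edgeR).

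The long arm of chromosome 1 held a stretch in which calls were frequent. Between 150 and 170 Mb (GRCh37, steps of 5 Mb looked at after the values were seen), 82 of 252 tested protein-coding genes were higher in PBX3_Cl KO than in Control and 7 were lower, with a median log2 fold change of 0.64. The highest of the 5 Mb steps, from 155 to 160 Mb, had 35 of 75 genes higher and 0 lower with a median of 0.87. On the rest of 1q, 28 of 362 were higher and 14 lower with a median of -0.15. Taken 1 library at a time against the Control mean, the stretch stood at 0.63 in PBX3_Cl KO replicate 1 and 0.62 in replicate 2. The same genes had a median of -0.04 in PAX6_Ta KO against Control and of 0.71 in PBX3_Cl KO against PAX6_Ta KO. Copy number was not measured in these libraries.

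Several other arms had medians away from 0. The highest medians were those of 11p, at 0.64 with 85 of 271 genes higher and 4 lower, 7p, at 0.59 with 57 of 207 higher and 4 lower, 7q, at 0.37 with 42 of 422 higher and 14 lower, and 19p, at 0.34 with 53 of 494 higher and 7 lower. The shift of 19p was not even, since the 5 Mb steps of its first 15 Mb had medians of 0.37 to 0.48 and the step from 20 to 25 Mb 0.36 (27 genes), but from 15 to 20 Mb the median was 0.05 (104 genes). On 9q, which carries the element, the median was 0.04 with 38 of 409 higher and 10 lower. In PAX6_Ta KO against the same Control libraries 11p stood at 0.62, 7p at 0.65, 7q at -0.23 and 19p at 0.05. Against PAX6_Ta KO, PBX3_Cl KO had medians of -0.02 on 11p, 0.01 on 7p, 0.64 on 7q and 0.26 on 19p. The shift of 7q, 19p and the 1q stretch therefore separated PBX3_Cl KO from both other groups, and that of 11p and 7p separated Control from both edited lines. The 19p shift was less even between replicates, with PBX3_Cl KO replicate 1 at 0.211 and replicate 2 at 0.392 against the Control mean. On 7q they stood at 0.369 and 0.366. Taking each arm's median out of the fit left 1026 genes higher and 571 lower than in Control.

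Targets of ATF4 had the largest share of rises among the 50 gene lists. ATF4 is the transcription factor of the integrated stress response, which cells switch on when amino acids are short or protein folding fails, and it raises genes of amino acid synthesis, transport and tRNA charging. Of 32 tested targets, 14 were higher in PBX3_Cl KO than in Control (43.8%, beside 6.28% of all tested genes) and 0 were lower (0 at any alternative fit), with 30 of 32 above 0 and a median of 0.79. The shares over all tested genes, 6.28% higher and 2.69% lower, are the background for the counts of every list that follows. The count was 14 without Control replicate 1, 10 without Control replicate 2 and 18 with the replicate block.

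The largest log2 fold changes of this list were those of STC2, ALDH1L2, PHGDH and CHAC1. STC2, a secreted glycoprotein, had 83 and 75 counts in Control and 1801 and 1870 in PBX3_Cl KO, a log2 fold change of 4.83 (SE 0.27, adjusted p = 6.93e-07, edgeR). ALDH1L2, a mitochondrial enzyme of folate metabolism, had 210 and 124 counts in Control and 2585 and 2870 in PBX3_Cl KO, at 4.34 (SE 0.28, adjusted p = 1.45e-06, edgeR). CHAC1, which degrades glutathione, had 356 and 179 counts in Control and 1663 and 1822 in PBX3_Cl KO, at 3.03 (SE 0.34, adjusted p = 1.01e-04, edgeR), and the stress cytokine GDF15 had 2892 and 1123 counts in Control and 6996 and 6112 in PBX3_Cl KO, at 2.05 (SE 0.31, adjusted p = 0.00111, edgeR). Genes of serine synthesis rose together, and PHGDH, the first enzyme, had 643 and 246 counts in Control and 4273 and 4715 in PBX3_Cl KO, at 3.68 (SE 0.36, adjusted p = 3.24e-05, edgeR), with PSAT1 at 1.28 and PSPH at 1.02 for the next steps, although PSPH, on 7p, lost its call with the arm median taken out. In all these genes every PBX3_Cl KO library lay above every Control library. Over all genes, 1859 of the 1860 called had no overlap between the 2 groups.

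Smaller rises were those of ASNS, asparagine synthetase, at 1.17, the cystine transporter gene SLC7A11 at 0.97, the tRNA synthetase genes CARS1 at 1.29 and WARS1 at 0.78, the mTOR inhibitor DDIT4 at 1.31, PCK2 at 0.90 and VEGFA at 0.82. CARS1, on 11p, lost its call with the arm median taken out, and ASNS, on 7q, did too. PAX6_Ta KO had 1954 and 1427 counts of STC2 and 11159 and 7371 counts of PHGDH. Against PAX6_Ta KO, 3 of the 32 targets were higher in PBX3_Cl KO and 2 lower. Direct differences to PAX6_Ta KO were 1.23 for ALDH1L2 and 0.89 for SLC7A11 (adjusted p = 0.00510 and 0.00851, edgeR), while for STC2 the difference was 0.27 on the log2 scale (adjusted p = 0.527, edgeR). Of those called, CTH was the third higher, at 1.48, and WARS1 at -0.80 and VLDLR at -1.72 were lower. Genes of protein folding in the ER gave 2 calls, and of 27 tested, ATF6 (0.88) and HERPUD1 (0.97) were higher and 0 lower (0 higher without Control replicate 2), with a median of 0.21. The heat shock list had 1 of 20 higher, DNAJB1 at 0.90 (3 with the replicate block). Both ATF6 and DNAJB1 lost their calls with the arm median taken out. ASNS, SLC7A11, WARS1, DDIT4, PCK2, VEGFA, ATF6, HERPUD1 and DNAJB1 lost their calls on leaving out one or other of Control replicate 1 and 2 and PBX3_Cl KO replicate 1 and 2 (adjusted p 0.0557 to 0.353, edgeR).

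Megakaryocyte and platelet genes split. Of 21 tested, 7 were lower in PBX3_Cl KO (33.3%, beside 2.69% of all tested genes) and 3 higher (14.3%, beside 6.28%), with a median of -0.24. The platelet chemokine gene PPBP had 1381 and 69 counts in Control and 2 and 0 in PBX3_Cl KO, a ratio of 590 (exact 95% interval 163 to 4880). SELP, the platelet adhesion molecule P-selectin, had 261 and 12 counts in Control and 0 and 0 in PBX3_Cl KO and was at least 74.1-fold lower, and MMRN1, a granule protein that binds factor V, had 307 and 60 counts in Control and 2 and 1 in PBX3_Cl KO, a ratio of 99.6 (exact 95% interval 33.8 to 485). PLEK, the protein kinase C substrate pleckstrin, had 785 and 87 counts in Control and 13 and 7 in PBX3_Cl KO, at -5.04 (SE 0.83, adjusted p = 0.00183, edgeR). In all 4, Control replicate 1 stood far above Control replicate 2, and the PBX3_Cl KO libraries lay below both. The bound for SELP and the ratios for PPBP and MMRN1 pool the Control libraries. They therefore rest mostly on Control replicate 1, do not cover the spread between the replicates, and do not hold for Control replicate 2 alone. As these are bulk libraries, fewer cells of a type and less RNA per cell cannot be told apart. SELP lost its call on leaving out PBX3_Cl KO replicate 1 or 2 (adjusted p 0.0619 to 0.0696, edgeR).

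Receptors for fibrinogen and collagen fell less. ITGA2B had 3232 and 826 counts in Control and 487 and 329 in PBX3_Cl KO, at -1.95 (SE 0.45, adjusted p = 0.0167, edgeR), ITGB3 had 360 and 122 counts in Control and 69 and 51 in PBX3_Cl KO, at -1.65 (SE 0.45, adjusted p = 0.0383, edgeR), and the collagen receptor gene GP6 had 2929 and 2086 counts in Control and 877 and 696 in PBX3_Cl KO, at -1.36 (SE 0.23, adjusted p = 0.00210, edgeR). FLI1, a transcription factor of megakaryocytes, had 408 and 58 counts in Control and 4 and 5 in PBX3_Cl KO, at -5.28 (SE 0.84, adjusted p = 0.00150, edgeR). PTGS1, given above, TUBB1, the platelet beta tubulin, at 1.89, and PEAR1, a platelet receptor, at 0.96, were the 3 that rose. Without Control replicate 1 the count was 4 lower and 6 higher, and without Control replicate 2 it was 10 lower and 2 higher, and with the replicate block 7 lower and 5 higher. PAX6_Ta KO had 6 and 2 counts for PPBP, 15 and 17 counts for PLEK and 5 and 2 counts for FLI1, but 244 and 146 counts for MMRN1. Summed over the 31 members in the table, the list stood at 605 and 431 CPM in Control and 696 and 647 in PBX3_Cl KO, so its total did not fall. PTGS1 alone stood at 22.9 and 7.41 CPM in Control and 135 and 165 in PBX3_Cl KO, and without it the sums of the groups overlapped. DESeq2 did not call ITGA2B or TUBB1, and PEAR1 lost its call with the arm median taken out. ITGA2B, ITGB3, TUBB1 and PEAR1 lost their calls on leaving out one or other of Control replicate 1 and 2 and PBX3_Cl KO replicate 1 and 2 (adjusted p 0.0522 to 0.409, edgeR).

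**Figure D2:**
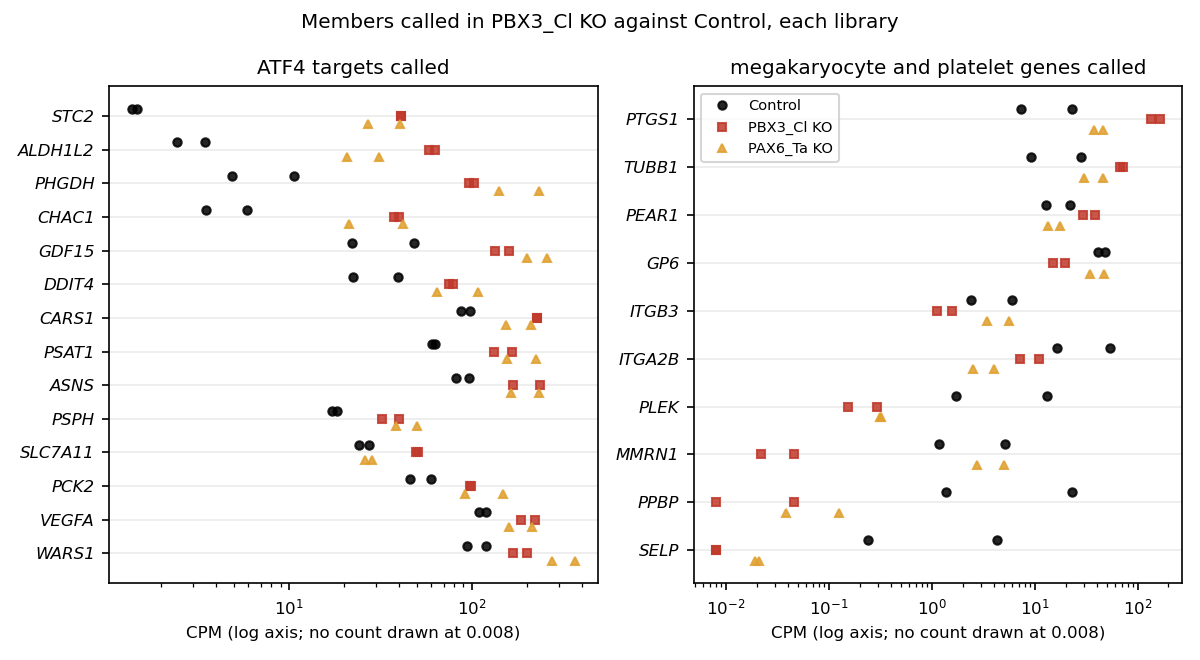
CPM in each library of the 14 ATF4 targets (left) and the 10 megakaryocyte and platelet genes (right) called in PBX3_Cl KO against Control, on log axes; a library without reads is drawn at 0.008. Black circles are Control, red squares PBX3_Cl KO and yellow triangles PAX6_Ta KO; the 2 Control circles lie far apart for PPBP, SELP and PLEK.

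Red cell genes rose where they changed, with 1 exception. HBA2 had 13702 and 9566 counts in Control and 31032 and 49532 in PBX3_Cl KO, at 2.10 (SE 0.26, adjusted p = 2.52e-04, edgeR), and its near-identical copy HBA1 had 2011 and 1603 counts in Control and 3123 and 4177 in PBX3_Cl KO, at 1.31 (SE 0.21, adjusted p = 0.00133, edgeR), and reads of the pair may have been divided between them in counting. These were 2 of 10 globin genes higher (5 with the replicate block, 4 without Control replicate 1) and 0 lower, with a median of 0.76, and the summed globin level was 4590 and 3830 CPM in Control and 7150 and 6290 in PBX3_Cl KO. Among 30 genes of the red cell membrane and surface, 7 were higher (23.3%, beside 6.28% of all tested genes) and 1 lower (3.3%, beside 2.69%), and it was 4 higher without Control replicate 2 and 2 lower with the replicate block. SLC4A1, the anion exchanger band 3, had 190 and 69 counts in Control and 556 and 1185 in PBX3_Cl KO, at 3.08 (SE 0.43, adjusted p = 5.68e-04, edgeR), DMTN, the skeletal protein dematin, had 2349 and 1420 counts in Control and 5112 and 7590 in PBX3_Cl KO, at 2.07 (SE 0.25, adjusted p = 2.05e-04, edgeR), and the water channel gene AQP1 had 167 and 38 counts in Control and 398 and 505 in PBX3_Cl KO, at 2.49 (SE 0.46, adjusted p = 0.00398, edgeR). TSPAN33 (2.01), ACKR1 (2.26), CD59 (1.11) and the spectrin gene SPTB (0.88) were the other 4. CA2, carbonic anhydrase 2, went the opposite way with 1295 and 1312 counts in Control and 123 and 108 in PBX3_Cl KO, at -3.21 (SE 0.26, adjusted p = 9.69e-06, edgeR). PAX6_Ta KO had a globin sum of 9370 and 7720 CPM, and 0 globin genes were called higher and 1 lower in PBX3_Cl KO than there. Of the membrane and surface genes, 9 were called higher and 1 lower than in PAX6_Ta KO. SLC4A1 stood at 21.5 and 14.2 CPM in PAX6_Ta KO and 12.6 and 25.9 in PBX3_Cl KO, and DMTN at 59.4 and 44.7 against 116 and 166. ACKR1 and CD59 lost their calls with the arm median taken out. ACKR1, CD59 and SPTB lost their calls on leaving out one or other of Control replicate 1 and 2 and PBX3_Cl KO replicate 1 and 2 (adjusted p 0.0581 to 0.202, edgeR).

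Of 24 genes of haem synthesis and iron uptake, ALAS1 (0.91), PPOX (0.70) and STEAP3 (0.78) were higher and 0 lower (1 lower with the replicate block, 1 higher without Control replicate 2). Among 29 erythroid and stem cell transcription factors, GFI1 (1.60) was higher and FLI1 and ZNF521 (-1.48) lower (3 and 3 with the replicate block). The factors that define the lineage were not called, with GATA1 at 0.28 (SE 0.21, adjusted p = 0.564, edgeR) and TAL1 at -0.22 (SE 0.23, adjusted p = 0.703). ALAS1, PPOX, STEAP3 and GFI1 lost their calls on leaving out one or other of Control replicate 1 and 2, PAX6_Ta KO replicate 1 and 2 and PBX3_Cl KO replicate 1 and 2 (adjusted p 0.0567 to 0.482, edgeR).

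Markers of other cell types were counted to check the label of the line. Defining markers of K562 were present in every library, GATA1 at 254 and 303 CPM in Control and 332 and 341 in PBX3_Cl KO, and HBG2 at 863 and 941 against 1360 and 1720, while adult HBB stayed between 0.298 and 0.655 CPM in these 4 libraries. The B cell marker MS4A1 and the mast cell genes TPSAB1 and CPA3 had no read, and the myeloid gene MPO stayed below 0.03 CPM. Summed lymphoid levels were 217 and 201 CPM in Control and 173 and 156 in PBX3_Cl KO, and myeloid levels 179 and 142 against 223 and 150. Fibroblast markers summed to 299 and 422 against 381 and 280, epithelial ones to 979 and 747 against 1140 and 684, endothelial ones to 247 and 264 against 244 and 242, neural ones to 222 and 187 against 202 and 214, and mast cell ones to 16.5 and 24.1 against 48.9 and 30.8. Of the sums listed here, only that of the mast cell genes was above both Control libraries in both PBX3_Cl KO libraries, as was the megakaryocyte and platelet sum given above. The mast cell sum was carried by ENPP3, at 10.4 and 21.5 CPM in Control and 42.1 and 24.9 in PBX3_Cl KO, which was not called, and without it the groups overlapped. The lymphoid and endothelial sums were below both Control libraries, and the others listed here overlapped. The part of these levels in other results was not tested. Among single members, the lymphoid recombinase genes RAG1 (1.58) and RAG2 (1 and 1 counts in Control, 30 and 18 in PBX3_Cl KO, a ratio of 29.5, 7.73 to 250) were higher and EBF1 (-2.93) and TCF7 (-1.31) lower, of 16 tested. LST1, with 21 and 20 counts in Control and 0 and 0 in PBX3_Cl KO and at least 11.1-fold lower, and AIF1 (-2.69) were lower of 21 myeloid genes (1 higher with the replicate block, 4 lower without Control replicate 2), HDC (2.17) and IL1RL1 (3 and 0 against 20 and 24 counts, a ratio of 18, 5.77 to 90.7) higher of 8 mast cell genes, and KRT19 (1.26) higher of 12 epithelial genes (2 higher and 1 lower with the replicate block). Of 8 neural genes NES (1.24) was higher and SYP (-1.89), ENO2 (-1.70) and MBP (a ratio of 19, 6.24 to 94.4) lower, and of 9 endothelial genes 0 were called by edgeR (3 lower at an unadjusted p below 0.05, 0 by DESeq2). AIF1, HDC, IL1RL1 and KRT19 lost their calls on leaving out one or other of Control replicate 1 and 2 and PBX3_Cl KO replicate 1 and 2 (adjusted p 0.0545 to 0.228, edgeR).

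Among chemokines, cytokines and their receptors, 10 of 56 were higher (17.9%, 16 genes with the replicate block) and 2 lower, with a median of 0.36. Of the 10, 5 belong to the IL-6 family, whose receptors pair with gp130 and signal through JAK and STAT3, which was noticed after their values were seen. LIFR, the leukaemia inhibitory factor receptor, had 96 and 168 counts in Control and 1604 and 1232 in PBX3_Cl KO, at 3.69 (SE 0.32, adjusted p = 1.28e-05, edgeR). OSMR, the oncostatin M receptor, had 13 and 31 counts in Control and 150 and 122 in PBX3_Cl KO, at 2.88 (SE 0.46, adjusted p = 0.00155, edgeR), IL6R was at 2.82, IL6ST, which encodes gp130, at 0.92, and the ligand LIF at 2.52. PAX6_Ta KO had 3229 and 3497 counts of LIFR, and the difference to it was -1.08 on the log2 scale (adjusted p = 0.0251, edgeR). The interleukin 18 receptor gene IL18R1 had 34 and 20 counts in Control and 148 and 176 in PBX3_Cl KO, at 2.89 (SE 0.41, adjusted p = 6.00e-04, edgeR), IL16 was at 1.76, IL15 at 2.24, IL9R at 3.16 and TNFSF9 at 0.90. CSF1, the macrophage growth factor, at -1.70, and THPO, thrombopoietin, at -1.89, were lower (6 with the replicate block, 5 without Control replicate 2). IL6ST, LIF, IL15, IL9R and TNFSF9 lost their calls on leaving out one or other of Control replicate 1 and 2 and PBX3_Cl KO replicate 1 and 2 (adjusted p 0.0649 to 0.221, edgeR).

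Interferon-stimulated genes were called in both directions. Of 34 tested, 7 were higher (20.6%) and 2 lower (5.9%), with a median of 0.52, and without Control replicate 2 there were 3 higher. USP18, which removes ISG15 from proteins, had 5 and 2 counts in Control and 53 and 38 in PBX3_Cl KO, at 3.96 (SE 0.63, adjusted p = 0.00155, edgeR). OAS3, a sensor of double-stranded RNA, had 106 and 38 counts in Control and 335 and 466 in PBX3_Cl KO, at 2.81 (SE 0.44, adjusted p = 0.00141, edgeR), and RSAD2, the antiviral enzyme viperin, had 259 and 67 counts in Control and 548 and 839 in PBX3_Cl KO, at 2.44 (SE 0.44, adjusted p = 0.00375, edgeR). DDX60 (3.31), SAMD9 (1.56), IFIT3 (1.58) and PARP9 (0.99) rose as well. The membrane proteins that block viral entry fell, IFITM3 with 1283 and 1443 counts in Control and 66 and 59 in PBX3_Cl KO, at -4.16 (SE 0.28, adjusted p = 2.36e-06, edgeR), and IFITM2, a near-identical neighbour on 11p, at -1.96. In antigen presentation 1 of 22 was higher (2 with the replicate block), CD1D with 2 and 1 counts in Control and 167 and 111 in PBX3_Cl KO, a ratio of 114 (exact 95% interval 38.5 to 555), and among NF-kB targets NFKB2 (1.07) and BCL3 (1.25) were higher and TNFAIP2 (-0.83) lower of 25 (6 and 4 with the replicate block, 0 higher without Control replicate 1 and 3 lower without Control replicate 2). DDX60, SAMD9, IFIT3, PARP9, NFKB2, BCL3 and TNFAIP2 lost their calls on leaving out one or other of Control replicate 1 and 2 and PBX3_Cl KO replicate 1 and 2 (adjusted p 0.0543 to 0.537, edgeR).

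Matrix and adhesion genes changed in both directions. Of 28 collagen genes, 7 were higher (25.0%) and 4 lower (14.3%), with a median of 0.10. Beside COL5A1, the rises were led by COL15A1 with 71 and 81 counts in Control and 1120 and 913 in PBX3_Cl KO, at 4.03 (SE 0.37, adjusted p = 2.06e-05, edgeR), and COL14A1 with 17 and 20 counts in Control and 265 and 172 in PBX3_Cl KO, at 3.85 (SE 0.33, adjusted p = 1.27e-05, edgeR). COL21A1 (a ratio of 32.5, 8.58 to 276), COL3A1 (2.91), COL6A3 (1.95) and COL4A5 (1.93) followed. COL1A2, a chain of collagen I, fell from the highest Control level of the called collagens, with 2922 and 6703 counts in Control and 61 and 78 in PBX3_Cl KO, at -5.87 (SE 0.44, adjusted p = 4.92e-06, edgeR), and COL4A2 (-1.96), COL19A1 (a ratio of 20.4, 5.35 to 173) and COL25A1 (-3.01) fell at lower levels. COL5A1 was thus nearly silent in both Control libraries and high in both PBX3_Cl KO libraries, and COL1A2 the reverse. COL21A1, COL19A1 and COL25A1 lost their calls on leaving out one or other of Control replicate 1 and 2 and PBX3_Cl KO replicate 1 and 2 (adjusted p 0.0527 to 0.320, edgeR).

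Cell surface adhesion proteins followed no single direction either. Of 25 tested, 4 were higher and 3 lower (8 and 5 with the replicate block, 7 and 1 without Control replicate 1). PVR, the poliovirus receptor CD155 seen by natural killer cells, had 220 and 148 counts in Control and 1887 and 1477 in PBX3_Cl KO, at 3.51 (SE 0.26, adjusted p = 4.92e-06, edgeR), and F11R, a junctional adhesion molecule, was at 1.39, CD44 at 1.62 and CD58 at 0.86. CD44 lost its call with the arm median taken out. MCAM, the melanoma cell adhesion molecule CD146, had 9574 and 8976 counts in Control and 1265 and 436 in PBX3_Cl KO, at -3.14 (SE 0.40, adjusted p = 2.89e-04, edgeR), and L1CAM was at -1.84, SELP being the third of the falls. Of 22 integrins, ITGA5 (1.05), ITGA3 (1.73) and ITGA9 (2.39) were higher and ITGA2B and ITGB3 lower, but 0 were called in either direction without Control replicate 1 and 1 was higher without Control replicate 2. The matrix protein fibronectin, FN1, had 4177 and 3850 counts in Control and 8254 and 7462 in PBX3_Cl KO, at 1.26 (SE 0.20, adjusted p = 0.00126, edgeR), and with COL3A1 and COL1A2 it made up the called genes among 11 fibroblast markers. CD44, CD58, L1CAM, ITGA5, ITGA3 and ITGA9 lost their calls on leaving out one or other of Control replicate 1 and 2, PAX6_Ta KO replicate 1 and 2 and PBX3_Cl KO replicate 1 and 2 (adjusted p 0.0513 to 0.413, edgeR).

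Axon guidance genes held one of the deepest falls among the lists. SLIT2, a secreted ligand of ROBO receptors, had 1524 and 1318 counts in Control and 26 and 23 in PBX3_Cl KO, at -5.55 (SE 0.27, adjusted p = 3.54e-07, edgeR), with a direct difference to PAX6_Ta KO (857 and 874 counts) of -4.97 on the log2 scale (adjusted p = 2.67e-07, edgeR). The semaphorin receptor genes PLXNA2, with 592 and 181 counts in Control and 17 and 35 in PBX3_Cl KO, at -3.54 (SE 0.48, adjusted p = 4.32e-04, edgeR), and PLXND1, at -1.43, fell, as did EFNB2 (-1.81), SEMA3F (-0.92) and SEMA4C (-0.83). SEMA3A, a repellent for axons, had 10 and 4 counts in Control and 70 and 80 in PBX3_Cl KO, at 3.71 (SE 0.52, adjusted p = 5.68e-04, edgeR), and the receptor gene EPHB6 had 1459 and 1542 counts in Control and 4100 and 3128 in PBX3_Cl KO, at 1.56 (SE 0.26, adjusted p = 0.00202, edgeR). In all, 8 of 36 were higher (22.2%) and 6 lower (16.7%), and the rises came to 4 without Control replicate 1 and to 2 without Control replicate 2. The smaller rises were those of SEMA4F, ROBO3, SEMA4D, EFNA4, EFNA3 and PLXNA1, from 0.80 (PLXNA1) to 1.46 (ROBO3). SEMA3F, SEMA4C, SEMA4F, ROBO3, SEMA4D, EFNA4, EFNA3 and PLXNA1 lost their calls on leaving out one or other of Control replicate 1 and 2, PAX6_Ta KO replicate 1 and 2 and PBX3_Cl KO replicate 1 and 2 (adjusted p 0.0536 to 0.377, edgeR).

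Genes of the TGF-beta and BMP pathway were called in both directions. Ligands of this family signal through paired receptors to SMAD proteins. Among ligands GDF15 (2.05), INHBE (2.25) and TGFB3 (1.40) were higher and BMP6 (-1.83) lower. TGFBR2, the type II receptor for TGF-beta, had 51 and 14 counts in Control and 298 and 220 in PBX3_Cl KO, at 3.33 (SE 0.50, adjusted p = 0.00101, edgeR), and SMAD1, given above, was lower. These were 4 of 41 higher and 2 lower, beside a median of 0.10, and the counts were 6 and 3 with the replicate block and 7 and 1 without Control replicate 1. TGFB3 and BMP6 lost their calls on leaving out one or other of Control replicate 1 and 2 and PBX3_Cl KO replicate 1 and 2 (adjusted p 0.103 to 0.396, edgeR).

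WNT genes gave 4 of 36 higher (11.1%, beside 6.28% of all tested genes) and 3 lower (8.3%, beside 2.69%), with 2 higher without Control replicate 2. The ligand WNT5B had 1188 and 560 counts in Control and 28 and 35 in PBX3_Cl KO, at -4.46 (SE 0.38, adjusted p = 1.17e-05, edgeR), while WNT7A had 0 and 0 counts in Control and 58 and 19 in PBX3_Cl KO and was at least 31.5-fold higher. The receptor FZD3 had 3 and 8 counts in Control and 395 and 295 in PBX3_Cl KO, at 6.22 (SE 0.51, adjusted p = 8.95e-06, edgeR), FZD1 was at 0.89 and LGR4 at 0.91, and RNF43, which removes frizzled receptors from the surface, was lower at -1.44, as was the nuclear factor TCF7. FZD1, LGR4 and the Notch gene NOTCH3 lost their calls with the arm median taken out. Notch genes gave 3 of 28 higher (10.7%) and 5 lower (17.9%). HEY2, a repressor induced by Notch, had 250 and 197 counts in Control and 9 and 7 in PBX3_Cl KO, at -4.48 (SE 0.39, adjusted p = 1.49e-05, edgeR), and the coactivator MAML3 had 2295 and 1821 counts in Control and 319 and 478 in PBX3_Cl KO, at -2.07 (SE 0.23, adjusted p = 1.01e-04, edgeR). The ligand DLL4 (-1.68), HES7 (-2.48) and MFNG (-2.92) fell too, whereas NOTCH3 (1.68), HEYL (2.91) and MAML2 (1.11) rose. FZD1, LGR4, RNF43, DLL4, MFNG and NOTCH3 lost their calls on leaving out one or other of Control replicate 1 and 2 and PBX3_Cl KO replicate 1 and 2 (adjusted p 0.0653 to 0.426, edgeR).

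Genes of mTOR and AKT, the pathway that SIN1 serves, gave 4 of 35 higher and 2 lower (7 and 2 with the replicate block, 2 higher without Control replicate 2), with a median of 0.13. INPP4B, a phosphatase of phosphoinositides, had 1 and 1 counts in Control and 38 and 22 in PBX3_Cl KO, a ratio of 36.8 (exact 95% interval 9.76 to 311). SGK1, a substrate of mTOR complex 2, was at 0.78. PIK3CD, the delta catalytic subunit of PI3 kinase, had 3892 and 3551 counts in Control and 1144 and 1218 in PBX3_Cl KO, at -1.36 (SE 0.19, adjusted p = 5.24e-04, edgeR), and SESN3, a sensor that restrains mTOR complex 1, was at -1.17. FOXO1, a transcription factor that AKT keeps out of the nucleus, had 1038 and 882 counts in Control and 281 and 252 in PBX3_Cl KO, at -1.55 (SE 0.22, adjusted p = 7.63e-04, edgeR), and was one of 2 lower and 3 higher of 19 FOXO factors and targets (1 higher without Control replicate 2), with TRIB2 (-1.08), FBXO32 (2.59), BCL6 (1.07) and PDK4 (10 and 3 counts in PBX3_Cl KO and none in Control, at least 5.32-fold higher). SGK1, SESN3, BCL6 and PDK4 lost their calls on leaving out one or other of Control replicate 1 and 2, PAX6_Ta KO replicate 1 and 2 and PBX3_Cl KO replicate 1 and 2 (adjusted p 0.0515 to 0.362, edgeR).

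MAPK and AP-1 genes had 6 of 34 higher and 1 lower, with 3 higher without Control replicate 2. JDP2, an AP-1 partner, had 0 and 1 counts in Control and 43 and 62 in PBX3_Cl KO, a ratio of 129 (exact 95% interval 22.6 to 5140), and PHLDA1 had 113 and 79 counts in Control and 401 and 312 in PBX3_Cl KO, at 2.20 (SE 0.30, adjusted p = 4.78e-04, edgeR). BATF (a ratio of 13.9, 4.38 to 70.8), EGR3 (2.57), MAFF (1.21) and ETV1 (0.95) rose, and JUN (-0.94) fell, from 8497 and 3677 to 2461 and 2554 counts, with an adjusted p of 0.0496 (edgeR) that lay at the threshold. Of 25 targets of STAT5 and BCR-ABL, 1 was higher, CISH at 0.93, and among 23 ABC transporters and exporters ABCG2, a drug efflux pump, had 57 and 60 counts in Control and 426 and 285 in PBX3_Cl KO, at 2.89 (SE 0.32, adjusted p = 1.07e-04, edgeR), with ABCB4 (3.94) also higher and ABCG4 (a ratio of 36.6, 6.25 to 1480) lower. With the replicate block CISH was 1 of 3 STAT5 targets called higher, and 2 exporters were lower. BATF, EGR3, MAFF, ETV1, JUN, CISH, ABCB4 and ABCG4 lost their calls on leaving out one or other of Control replicate 1 and 2 and PBX3_Cl KO replicate 1 and 2 (adjusted p 0.0511 to 0.614, edgeR).

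Few cell cycle genes were called. Of 49 genes of G1/S 0 were higher and 1 lower, the cyclin gene CCND1 with 452 and 959 counts in Control and 153 and 116 in PBX3_Cl KO, at -2.14 (SE 0.39, adjusted p = 0.00389, edgeR), and their median was 0.01. Of 50 genes of G2/M, PIMREG, which acts at the metaphase to anaphase transition, had 78 and 35 counts in Control and 609 and 576 in PBX3_Cl KO, at 3.71 (SE 0.34, adjusted p = 2.10e-05, edgeR), and CDK1, the kinase of mitotic entry, was lower at -0.93. With the replicate block 1 of the G1/S genes and 2 of the G2/M genes were higher. CDK inhibitors and p53 targets had 4 of 29 higher (2 without Control replicate 2) and 0 lower. CDKN1A, which encodes the CDK inhibitor p21, had 1016 and 523 counts in Control and 2592 and 1884 in PBX3_Cl KO, at 1.87 (SE 0.30, adjusted p = 0.00172, edgeR), and FAS, a death receptor, had 4 and 7 counts in Control and 84 and 45 in PBX3_Cl KO, at 3.81 (SE 0.62, adjusted p = 0.00236, edgeR), with BTG2 at 1.09 and FDXR at 0.90. K562 lacks functional p53, and the list is named for its members in other cells. CDK1, BTG2 and FDXR lost their calls on leaving out one or other of Control replicate 1 and 2 and PBX3_Cl KO replicate 1 and 2 (adjusted p 0.0516 to 0.286, edgeR).

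Among 27 death receptors, adaptors and caspases 4 were higher and 1 lower. Beside FAS the rises included CASP4, an inflammatory caspase, with 1 and 0 counts in Control and 51 and 37 in PBX3_Cl KO, a ratio of 108 (exact 95% interval 18.9 to 4320), and TNFSF10, the death ligand TRAIL, with 7 and 0 counts in Control and 46 and 43 in PBX3_Cl KO, at 3.95 (SE 0.76, adjusted p = 0.00564, edgeR). Of 20 genes of the BCL2 family 0 were called by edgeR (2 higher and 2 lower at an unadjusted p below 0.05, 1 higher by DESeq2, and 2 higher and 1 lower with the replicate block).

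Cancer-testis antigens, usually silent outside the germ line, were called in both directions. Of 33 cancer-testis antigens tested, 11 were higher (33.3%, beside 6.28%) and 4 lower (12.1%, beside 2.69%), with a median of 0.24. MAGEA1 had 318 and 209 counts in Control and 2552 and 1977 in PBX3_Cl KO, at 3.42 (SE 0.27, adjusted p = 7.38e-06, edgeR). PAGE5 had 288 and 133 counts in Control and 2615 and 2168 in PBX3_Cl KO, at 3.84 (SE 0.31, adjusted p = 8.95e-06, edgeR), and PASD1 had 122 and 81 counts in Control and 1218 and 948 in PBX3_Cl KO, at 3.73 (SE 0.35, adjusted p = 2.55e-05, edgeR). All 3 lie on the X chromosome, and each PBX3_Cl KO library held over 6 times the counts of either Control library. VCX, VCX3A and VCX3B, near-identical copies whose reads cannot be assigned with certainty, were at 3.46, 3.57 and 4.21, and MAGEB17 had a ratio of 34.4, 11.4 to 170. MAGEB2 (1.30), MAGEC1 (1.42), MAGEC2 (1.41) and SSX1 (0.74) rose less. DDX53 had 583 and 497 counts in Control and 60 and 38 in PBX3_Cl KO, at -3.16 (SE 0.36, adjusted p = 1.19e-04, edgeR), and LUZP4 (-4.70), SSX2 (a ratio of 22.5, 7.45 to 111) and MAGEA9 (a ratio of 22.8, 3.77 to 932) were the other falls, SSX2 and MAGEA9 being members of families with near-identical copies. MAGEC2, SSX1 and MAGEA9 lost their calls on leaving out one or other of Control replicate 1 and 2, PAX6_Ta KO replicate 1 and 2 and PBX3_Cl KO replicate 1 and 2 (adjusted p 0.0578 to 0.408, edgeR).

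Imprinted genes included 2 deep falls of 30 tested, beside 3 rises (9 with the replicate block). DLK1, a Notch-like ligand of progenitor cells expressed from the paternal copy, had 910 and 1636 counts in Control and 23 and 19 in PBX3_Cl KO, at -5.66 (SE 0.39, adjusted p = 2.47e-06, edgeR). H19, an RNA expressed from the maternal copy, had 1031 and 1382 counts in Control and 137 and 95 in PBX3_Cl KO, at -3.10 (SE 0.36, adjusted p = 1.40e-04, edgeR). PAX6_Ta KO went the opposite way in both, with 5262 and 5018 counts of DLK1 and 20643 and 11378 counts of H19. GNAS-AS1 (3.22), TFPI2 (2.38) and SLC22A18 (1.46) were higher, and since no source states how strand was used in counting, reads of GNAS-AS1 and of its sense partner may not have been told apart. SLC22A18 lost its call with the arm median taken out. Among enzymes of DNA methylation, DNMT3A (1.27) was higher and TET1 (-0.90) lower of 18, and of 45 Polycomb and Trithorax subunits 1 was higher, PHF19. With the replicate block the counts were 2 higher and 2 lower for DNA methylation and 2 higher and 1 lower for Polycomb and Trithorax. TFPI2, SLC22A18, DNMT3A and TET1 lost their calls on leaving out one or other of Control replicate 1 and 2 and PBX3_Cl KO replicate 1 and 2 (adjusted p 0.0549 to 0.109, edgeR).

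Among relatives of PBX3, 2 of 11 PBX, MEIS and PKNOX genes were higher, PBX3 and PBX4, the latter with 18 and 4 counts in Control and 33 and 53 in PBX3_Cl KO and at 2.28 (SE 0.57, adjusted p = 0.0245, edgeR), a call that was lost with the arm median taken out. Of 27 HOX genes tested, HOXA3 (2 and 1 against 5 and 14 counts, a ratio of 7.78, 2.29 to 41) was higher and HOXC13 (-1.71) lower. HOXA9, the partner of PBX3 in leukaemia, had no read in Control or PBX3_Cl KO and 38 and 25 counts in PAX6_Ta KO. PBX4 and HOXA3 lost their calls on leaving out one or other of Control replicate 1 and 2 and PBX3_Cl KO replicate 2 (adjusted p 0.0787 to 0.206, edgeR).

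Hypoxia and glycolysis genes gave 2 of 38 higher (PDK3 at 3.14 and VEGFA) and 2 lower (NDRG1 at -1.22 and ENO2), 4 lower with the replicate block and 0 higher without Control replicate 1. Cholesterol and fatty acid genes gave 2 of 33 higher, among them FDPS at 0.85, and NRF2 and redox genes 1 of 31, SLC7A11 (5 and 5 with the replicate block, and 1 cholesterol gene lower). Of 15 genes of the mitochondrial genome MT-ND4 alone was called (4 higher with the replicate block, 2 lower without Control replicate 2), with a median of 0.43 over the list. Of 15 clustered protocadherins PCDHA11, with 18 and 14 counts in Control and 0 and 0 in PBX3_Cl KO and at least 8.69-fold lower, was called (2 with the replicate block). Of 78 cytosolic ribosomal protein genes 0 were called by edgeR or DESeq2 (4 higher and 2 lower at an unadjusted p below 0.05, 2 higher with the replicate block, and up to 3 higher and 6 lower when 1 library was left out). Of 23 replication-dependent histone genes and 11 small RNA genes 0 were called by either tool (4 and 5 lower at an unadjusted p below 0.05, 3 and 4 with the replicate block, and 3 histone genes lower without Control replicate 2). PDK3, NDRG1, FDPS and PCDHA11 lost their calls on leaving out one or other of Control replicate 1 and 2 and PBX3_Cl KO replicate 1 and 2 (adjusted p 0.0519 to 0.188, edgeR).

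Among lncRNAs with a symbol and at least 2 CPM in the higher group, the largest rises were those of MIR548XHG, the host of a microRNA, with 9 and 10 counts in Control and 792 and 681 in PBX3_Cl KO, at 6.55 (SE 0.38, adjusted p = 8.04e-07, edgeR), LINC00520 with 6 and 5 counts in Control and 476 and 293 in PBX3_Cl KO, at 6.40, SEPTIN7P11, a septin pseudogene transcript, at 5.15, and PPP1R3B-DT, at 5.13. The deepest falls were those of LINC00839 with 304 and 314 counts in Control and 7 and 14 in PBX3_Cl KO, at -4.58 (SE 0.35, adjusted p = 6.16e-06, edgeR), LINC03057 at -3.42, LINC02882 at -3.24 and H19. These 8 genes were chosen from those without overlap between the groups, and none lost its call under any alternative.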

How the data were processed

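RNA was extracted from K562 cells (ISOLATE II kit) and stranded libraries were prepared with the Collibri kit. Per the labels and the study's methods, the authors trimmed reads with cutadapt 3.4, aligned them with STAR to GRCh37 and counted reads per gene, and the deposited table holds raw counts, not normalised. The authors' tables of fold changes and p-values from their own DESeq2 comparisons were not used. Of the table's columns, 4 that no sample label names were left out. Totals were 60908470 and 47949941 counts in Control, 49843547 and 48296088 in PAX6_Ta KO and 48128890 and 45912044 in PBX3_Cl KO.

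All 6 libraries were fitted together in edgeR 4.0.16 (R 4.3.3) by the quasi-likelihood test with TMM factors, after filterByExpr kept 20746 of 52088 genes. P-values are two-sided and Benjamini-Hochberg adjusted over all tested genes, and adjusted p below 0.05 counted as called. CPM were computed with TMM-scaled library sizes, fold changes are log2, and medians are over tested genes. DESeq2 1.42.0, other size factors, other filters, a replicate block, 2 groups alone, the arm median taken out and leaving out each library were the alternatives. The scripts were tested on simulated data with known changes. Replicates 1 and 2 deviated together across groups (correlations of the replicate differences 0.389, 0.21 and 0.379), so their numbers were taken to pair the libraries in the blocked fit. The main fit, with its SE and p-values, leaves this pairing out. The blocked count is given where it moves a count by over 1.5 times.

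Named genes were, by rule, the 12 called protein-coding genes with the largest and the 12 with the smallest log2 fold change at 2 CPM or more, the 10 most abundant called with a change of at least 2-fold, protein-coding genes within 1 Mb, up to 4 called members per list and 8 lncRNAs (172 in all). The genes of largest and smallest log2 fold change and the lncRNAs also had to show no overlap between PBX3_Cl KO and Control. A further 100 were named after their values were seen, the remaining called members of the lists and of the 5 Mb window and 3 for orientation, besides some uncalled genes, and a few of the named genes are not reported here. The members, gene lists and tests were chosen with earlier results of these data known. For genes without a read in a group the bound takes that group's libraries to hold 3 reads together, and those with 1 to 3 a ratio with an exact 95% interval, which cover counting error only. Bounds and ratios pool the libraries of each group, so they do not cover the spread between replicates. Gene positions are of GRCh37, with 1329 entries of the table not placed. Motif shares were counted in RefSeq promoters (GRCh38.p14) and in windows of MAPKAP1.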

Additional observations from a re-analysis of the deposited data

Results flagged for a closer look

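Of the 272 named genes, 17 were called in opposite directions against Control in the 2 edited lines and also differed by the direct test in edgeR between PBX3_Cl KO and PAX6_Ta KO. The 2 lines share their Control libraries, each is represented by 2 libraries, and chance was not assessed for the number of such genes. Of the 272 named genes, 258 were called in PBX3_Cl KO against Control, most of them named for that reason. No share over all tested genes is given beside the 17, so the count does not show how common such genes were. All values are log2 differences, PBX3_Cl KO minus PAX6_Ta KO.

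The genes higher in PBX3_Cl KO and lower in PAX6_Ta KO were FAS, IL18R1, PASD1, PPP1R3B-DT, COL4A5, EPHB6, SAMD9, MAML2 and NIBAN2. FAS, a death receptor, had no read in either PAX6_Ta KO library, 4 and 7 counts in Control and 84 and 45 in PBX3_Cl KO, and its fitted difference of 9.18 depends on the prior count and is no bound. IL18R1 differed by 5.64 (adjusted p = 1.63e-05) with 4 and 3 counts in PAX6_Ta KO. PASD1 differed by 6.42 with 20 and 8 counts there, and the lncRNA PPP1R3B-DT by 8.32 with 2 and 0, again a fitted value that depends on the prior count. COL4A5 differed by 4.46, EPHB6 by 3.48, SAMD9 by 3.12, MAML2 by 2.29 and NIBAN2, 1809.8 kb from the element, by 1.81.

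The genes lower in PBX3_Cl KO and higher in PAX6_Ta KO were DLK1, H19, LINC00839, PLXNA2, COL4A2, NDRG1, CSF1 and SESN3. DLK1 differed by -7.77 (adjusted p = 2.67e-07), with 5262 and 5018 counts in PAX6_Ta KO, 910 and 1636 in Control and 23 and 19 in PBX3_Cl KO. H19, from an imprinted region of 11p, differed by -6.96 (adjusted p = 6.58e-07) with 20643 and 11378 counts in PAX6_Ta KO. LINC00839 differed by -6.46, PLXNA2 by -5.17, COL4A2 by -3.78, NDRG1, a stress-responsive gene, by -2.98, CSF1 by -2.69 and SESN3 by -2.38. In all 8 the 3 groups of 2 libraries did not overlap.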

How the results depend on the processing

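Of the 258 named genes called by edgeR, 149 stayed past the threshold in the same direction under all 14 alternatives and 109 did not under at least 1, 54 of them under an alternative that kept all 6 libraries. Named calls were lost for 12 genes by DESeq2, 28 with upper-quartile factors, 35 with the arm median taken out and 71 without Control replicate 2. No named gene changed sign as a call, and the replicate block changed no call of a named gene. Beside the genes given above, DESeq2 left ACKR1, DDX60, GFI1, IL9R, ITGA9, MAGEA9, MFNG, PDK4 and SSX1 uncalled. With the arm median taken out, BCL3, BMP6, COL25A1, EFNA3, EFNA4, ETV1, FDPS, FDXR, HDC, HOXA3 and ITGA3 also lost their calls. So did JUN, PDK4, PPOX, ROBO3, SAMD9, SEMA4D, SSX1, TNFAIP2, TNFSF9 and TPM3. With the replicate block, 876 genes were lower in PBX3_Cl KO than in Control, and 2205 were higher and 1672 lower than in PAX6_Ta KO. Leaving out 1 library at a time gave 849 to 1340 genes higher and 420 to 732 lower than in Control, and 606 to 1535 higher and 662 to 1425 lower than in PAX6_Ta KO. Against Control the fewest higher, 849, came without Control replicate 2 and the fewest lower, 420, without Control replicate 1, and against PAX6_Ta KO the counts were 769 and 662 without PAX6_Ta KO replicate 1 and 606 higher without its replicate 2. The cause was not tested. Other alternatives stayed within 1.5 times, with DESeq2 at 1331 and 577, no filter at 1604 and 800, a filter of at least 50 counts at 934 and 458, and upper-quartile factors at 1104 and 597. Fitting the Control and PBX3_Cl KO libraries alone gave 1136 higher and 478 lower. The calls within 5 Mb of the element stayed at 18 to 25 higher and 3 to 5 lower when 1 library was left out. Genes with few reads in a group have wide counting intervals.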
